A study of Saccharomyces cerevisiae with 18 samples.

Results

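The *ioc3*Δ *yaf9*Δ strain of *Saccharomyces cerevisiae* lacks *IOC3* and *YAF9* together, and its transcript levels were set against those of wild type in 6 of the 18 RNA-seq libraries of the series. The members were chosen by strain alone, 3 libraries of *ioc3*Δ *yaf9*Δ and 3 of wild type, and all 5786 genes that passed a filter on low values were compared out of 5830 in the table. Each library came from an independent culture in YPD, a rich glucose medium. The labels give both strains the BY4742 background and a FLAG epitope tag. The paper describes this tag on Ioc3 among other proteins, and where a strain without *IOC3* carries it is not given. By label the double mutant differs from wild type by the 2 deletions, and other differences between the strains were not tested. Further strains of the series with 3 libraries each (*ioc3*Δ, *yaf9*Δ, and, with an Ioc3 that lacks part of its HLB domain, *ioc3*Δ*cHLB yaf9*Δ) served to show where the double mutant differed from them.

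Ioc3 pairs with the ATPase Isw1 to form ISW1a, a remodeler that spaces nucleosomes and binds the DNA between them through the HLB domain of Ioc3. Yaf9 is a small subunit with a YEATS domain, which recognizes acylated histone tails. It is shared by NuA4, which acetylates histones, and by SWR1, which places the histone variant Htz1 next to promoters. A strain without both proteins therefore has no ISW1a and lacks one shared subunit of each of the other complexes.

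Transcripts of both deleted genes were absent or nearly so. *IOC3* (YFR013W, chromosome VI, 169922 to 172285) had 59.7, 58.3 and 62.4 CPM, or reads scaled to a common effective library size, in wild type and 0.136, 0 and 0 CPM in *ioc3*Δ *yaf9*Δ. That is 1 read against 1426, a level 1319-fold lower (exact 95% interval 236 to 52150, counting error only). *YAF9* (YNL107W, chromosome XIV, 420098 to 420778) stood at 29.9, 36.8 and 34.7 CPM in wild type and had no read in any library of the double mutant. Against the 3-read floor of those libraries, 0.415 CPM on average, *YAF9* was at least 81.4-fold lower.

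The mating type and marker genes went against the BY4742 label, which describes a MATα strain with deleted *LEU2*, *LYS2* and *URA3* and a disrupted *HIS3*. In all 18 libraries, 7 a-specific genes summed to 2061 to 3093 CPM, with *STE2*, the receptor for α-factor, at 670 to 1054 CPM. The α-factor gene *MF(ALPHA)1* reached at most 4.20 CPM, *MF(ALPHA)2* 3.06 CPM and *STE3* 14.04 CPM, while *SAG1* was at 24.9 to 48.3 CPM. *AFB1*, also α-specific, was at 34.9, 22.7 and 27.6 CPM in wild type and at 13.5, 13.3 and 18.6 CPM in the double mutant. Reads for *LEU2* (42.8 to 205 CPM), *LYS2* (156 to 228 CPM) and *URA3* (113 to 209 CPM) were also present in every library, and *HIS3* was at 8.29 to 18.5 CPM. The libraries are therefore called by the deleted genes alone, which the reads bear out.

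One library of each strain stood apart from the other two of its strain. Depth was similar, at 6474579 to 8121354 reads per library. Wild type replicates 1 and 3 had a Pearson r of 0.994 across genes, while replicate 2 had 0.980 and 0.981 with them. In the double mutant, replicates 1 and 2 had an r of 0.994, while replicate 3 had 0.987 and 0.982 with them. No pair of replicates agreed within counting noise (chi-square per degree of freedom 11.1 to 56.5). Values without one of these libraries are given beside the counts and medians that moved most.

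Of the 5786 genes, 713 (12.3%) were called, which throughout means 1.5-fold or more with an adjusted p below 0.1. Transcripts of 344 genes (5.95%) were higher in *ioc3*Δ *yaf9*Δ and those of 369 (6.38%) were lower. These shares over all tested genes are the scale for the counts of each gene list below. The libraries of the strains did not overlap for 678 of the 713, and over all tested genes they did not overlap for 1883 (32.5%). No overlap was also a condition for naming the largest changes below, so for those genes it is not a separate result. Changes over 4-fold were seen in 11 genes upward and 12 downward, and the median change over all genes was -0.02. Changes are log2 differences ± SE on the log2(CPM + 1) scale with 3 libraries per strain, and adjusted p-values are from limma. The SE and p-values use a spread per gene shared by all 18 libraries of the series. The median SD among replicates was 0.158 in wild type, 0.16 in the double mutant and 0.0787 in *yaf9*Δ. In a fit of only the compared strains, *IDH1*, *IDH2*, *RNR4*, *ARG3* and *PHO12* lost their calls against wild type. Without wild type replicate 2 and double mutant replicate 3 together, a choice made after seeing the data, 277 genes were called higher and 425 lower.

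**Figure D1:**
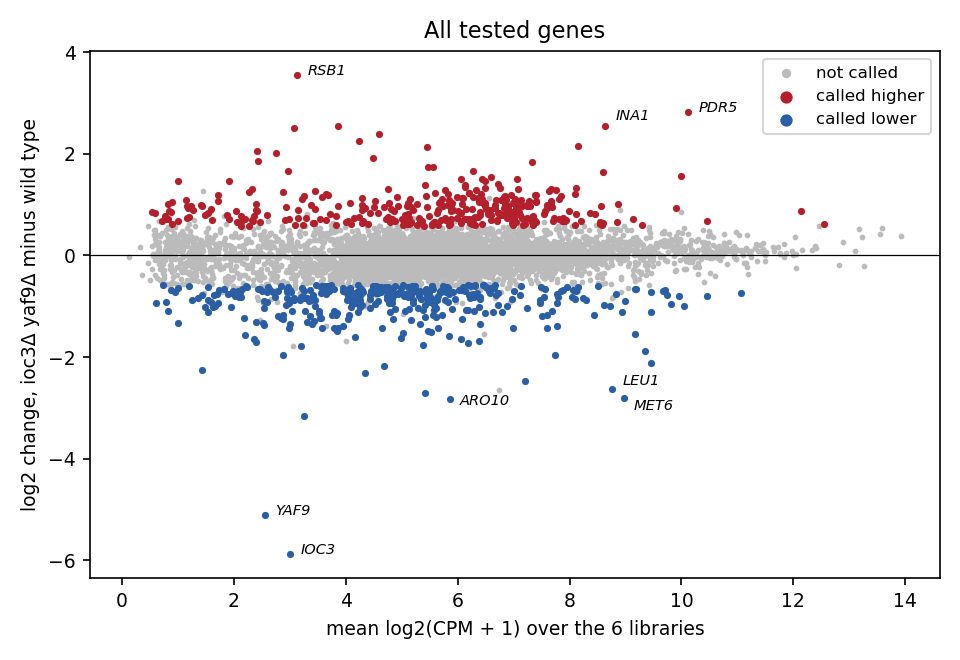
Change in *ioc3*Δ *yaf9*Δ against wild type (vertical axis, log2) over the mean log2(CPM + 1) of the 6 libraries (horizontal axis) for 5786 genes. Red points are the 344 genes called higher, blue points the 369 called lower, and grey points were not called. The deleted genes *IOC3* and *YAF9* lie lowest.

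The largest increases, those of *RSB1* and *PDR5*, were in the pleiotropic drug resistance network, in which the zinc-finger activators Pdr1 and Pdr3 drive transporters that pump drugs and lipids out of the cell. *PDR5* (YOR153W), the main multidrug exporter of the plasma membrane, was at 514, 338 and 423 CPM in wild type and at 3308, 2313 and 3354 CPM in the double mutant. *RSB1* (YOR049C), which helps move sphingoid bases across the membrane, went from 1.396, 3.07 and 0.690 CPM to 43.4, 19.7 and 28.2 CPM. Every double mutant library was above every wild type library for both genes, with changes of 2.81 ± 0.18 (adjusted p = 2.66e-08) for *PDR5* and 3.56 ± 0.32 (adjusted p = 2.88e-06) for *RSB1*.

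The transporter gene *PDR15* (YDR406W) rose by 1.73 ± 0.21, from 28.9, 23.4 and 22.3 CPM to 104, 70.7 and 81.9 CPM. The activator gene *PDR3* itself rose by 1.35 ± 0.14, from 52.6, 39.2 and 37.8 CPM to 123, 97.1 and 112 CPM. *CIS1* (YLR346C), on the same list, was at 1.95, 3.58 and 2.30 CPM in wild type and at 17.8, 11.7 and 33.1 CPM in the double mutant, a change of 2.50 ± 0.29. In none of these genes did the strains overlap. They were 5 of the 20 listed genes. The transporter *PDR10* fell by 0.86, and the other 14 were not called, so that the median of the list was -0.04 (0.05 without wild type replicate 2, with 2 called lower). Among those, *SNQ2* had a change of -0.34, *YOR1* -0.31 and *PDR1* 0.17. In *ioc3*Δ the means were 3851 CPM for *PDR5*, 45.5 CPM for *RSB1* and 17.5 CPM for *CIS1*, and in *yaf9*Δ they were 596, 1.35 and 2.48 CPM.

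Promoter stretches of *PDR5*, *PDR15* and *CIS1* are shown because all 3 genes rose and each carries the element that Pdr1 and Pdr3 bind, searched as TCCGCGG on both strands of the 500 bases before the start codon (sacCer3). Capitals mark the matched letters, with overlapping matches on opposite strands joined to 1 site.
PDR5, chrXV:619340-619553, plus strand, sites 491 and 313 bases before the start codon: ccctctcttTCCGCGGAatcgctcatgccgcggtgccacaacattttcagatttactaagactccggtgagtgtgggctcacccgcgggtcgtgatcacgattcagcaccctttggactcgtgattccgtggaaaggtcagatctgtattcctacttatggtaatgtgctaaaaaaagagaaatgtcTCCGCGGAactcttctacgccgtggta
PDR15, chrIV:1278748-1278857, plus strand, sites 442 and 379 bases before the start codon: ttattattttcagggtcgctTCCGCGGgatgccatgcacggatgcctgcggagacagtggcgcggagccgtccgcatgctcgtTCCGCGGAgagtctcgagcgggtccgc
CIS1, chrXII:822808-822937, minus strand, sites 325 and 242 bases before the start codon: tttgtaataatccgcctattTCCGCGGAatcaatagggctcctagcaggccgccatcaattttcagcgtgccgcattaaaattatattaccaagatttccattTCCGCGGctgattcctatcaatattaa

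The letters TCCGCGG occurred in 111 of 5610 promoters (1.98%), in 18 of the 331 promoters of genes called higher (5.44%) and in 7 of the 360 of genes called lower (1.94%). Of the 20 listed genes, 6 had a match. *RSB1*, with the largest change of the list, had no match in this window. *ARO10*, *ALD6*, *ARO9* and *ACS2*, which were called lower, had 1 match each. *ATG40* (YOR152C), a receptor for autophagy of the endoplasmic reticulum, lies next to *PDR5* on the opposite strand. Its level went from 7.54, 7.94 and 7.59 CPM to 45.0, 32.0 and 45.3 CPM, a change of 2.25 ± 0.16 (adjusted p = 2.56e-07), with no overlap between the strains.

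Other large increases fell on membrane, cell surface and catabolic genes. *INA1* (YLR413W) was at 175, 212 and 120 CPM in wild type and at 1226, 610 and 1195 CPM in the double mutant (2.54 ± 0.39, adjusted p = 0.000464). *FLO11*, the cell surface flocculin of adhesion and filamentous growth, went from 24.8, 20.7 and 15.1 CPM to 148, 69.7 and 71.4 CPM (2.13 ± 0.37). The strains did not overlap in either gene, and the spread among double mutant libraries was over 2-fold in both.

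*CAR2*, the ornithine transaminase of arginine breakdown, rose by 1.91 ± 0.30 from 10.3, 12.04 and 9.54 CPM to 34.0, 34.1 and 66.9 CPM. *FAA4*, a long-chain fatty acyl-CoA synthetase, rose by 1.64 ± 0.41, with wild type replicate 2 at 400 CPM against 164 and 159 CPM in the other two. *OSI1* (2.54), *DPI8* (2.39), *PRM2* (2.05), *PUL3* (1.86), *PRM5* (1.73) and *GRE2* (1.66) complete the 15 largest increases among genes with a symbol and a mean of at least 5 CPM in either strain, and none of them overlapped between the strains. *PRM2* and *PRM5* are genes that respond to mating pheromone. Of the 29 tested genes of the haploid mating list 4 were called higher and 2 lower, beside 5.95% and 6.38% of all tested genes. The list median was 0.14 (0.02 and 3 lower without wild type replicate 2). Its members ranged from -2.65 to 2.05, so the change largest in size was a decrease.

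**Figure D2:**
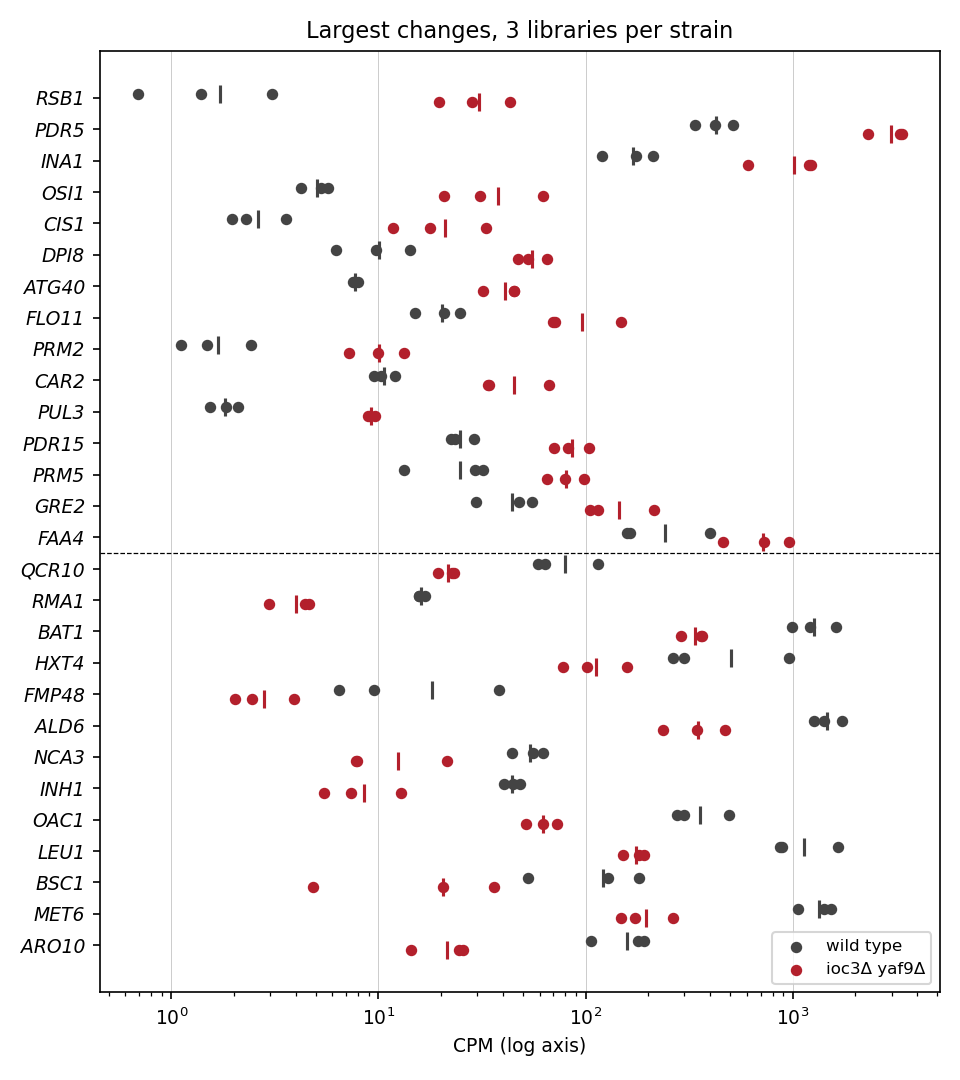
CPM in the 3 wild type (grey) and 3 *ioc3*Δ *yaf9*Δ (red) libraries on a log axis for the 15 largest increases (above the dashed line) and the 13 largest decreases other than *IOC3* and *YAF9*, among genes with a symbol and a mean of at least 5 CPM in either strain. Points are libraries and vertical ticks are means. The strains do not overlap in any of these genes, which was a condition for naming them.

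Among genes with a symbol, *ARO10* and *MET6* had the largest decreases after the deleted genes. *ARO10* (YDR380W), the decarboxylase that opens the Ehrlich pathway from amino acids to fusel alcohols, was at 178, 106 and 191 CPM in wild type and at 14.4, 24.6 and 25.5 CPM in the double mutant. *MET6* (YER091C), the methionine synthase, was at 1411, 1525 and 1066 CPM and fell to 148, 172 and 265 CPM. The decreases were 2.82 ± 0.26 for *ARO10* and 2.80 ± 0.28 for *MET6*, given as sizes on the log2 scale, and each wild type library exceeded each double mutant library by a wide margin.

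*ALD6*, the cytosolic aldehyde dehydrogenase that makes acetate, went from 1416, 1734 and 1266 CPM to 236, 470 and 346 CPM (-2.11 ± 0.34). *NCA3* changed by -2.18, *RMA1* by -1.78 and *INH1*, the inhibitor of the mitochondrial ATP synthase, by -2.32 (40.3, 48.1 and 44.6 CPM in wild type, 5.44, 7.35 and 12.9 CPM in the double mutant). Wild type replicate 2 set much of the change of *FMP48* (6.42, 38.2 and 9.54 CPM in wild type, 2.45, 2.03 and 3.93 CPM in the double mutant) and of the glucose transporter gene *HXT4* (297, 956 and 263 CPM against 102, 77.7 and 158 CPM). Both stayed called without that replicate, at the smallest changes of their leave-one-out ranges, -1.25 and -1.37. *BSC1*, at -2.70 ± 1.07, passed narrowly (adjusted p = 0.0963) and was not called by edgeR or DESeq2.

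Calls among nuclear genes of the mitochondrion differed in direction between lists. Of 72 tested genes for mitochondrial ribosomal proteins, 67 were called higher and none lower, with a median of 0.94, and all 72 values were above 0. Of 24 genes of respiratory complexes III and IV and their electron carriers, none was called higher and 18 lower, with a median of -0.90. These lists follow themes that the study drew from the same samples, so their direction is not independent evidence.

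*MRPL4*, a protein of the large mitochondrial subunit, was at 70.3, 36.1 and 66.8 CPM in wild type and at 184, 156 and 151 CPM in the double mutant (1.54 ± 0.21). *MRP20* rose by 1.46 ± 0.15, *MRPL31* by 1.41 ± 0.27 and *MRPS17* by 1.31 ± 0.25. Every double mutant library was above every wild type library in these genes. The summed level of the 72 genes was 7479, 3794 and 7805 CPM in wild type and 12350, 10800 and 12310 CPM in *ioc3*Δ *yaf9*Δ. Wild type replicate 2 was the lowest of these, and without it 39 of the 72 were called higher, with a median of 0.60. Leaving out double mutant replicate 3 as well gave 30 and a median of 0.57.

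*QCR10*, a subunit of complex III, went from 59.0, 115 and 63.8 CPM to 19.3, 22.7 and 23.1 CPM (-1.76 ± 0.20). *COX4*, a subunit of complex IV, went from 192, 265 and 177 CPM to 64.2, 80.2 and 87.9 CPM (-1.43 ± 0.20). The strains did not overlap in either, and *COX5A* (-1.20), *COX8* (-1.12), *COX6* (-1.11), *QCR2* (-1.09) and *QCR8* (-1.07) were also called lower. The cytochrome c gene *CYC1* had a change of 0.11 and its minor isoform *CYC7* one of -1.39 with an adjusted p of 0.116 from limma. *CYC7* was called lower by edgeR and DESeq2 and, in limma, without wild type replicate 1. Summed over the list, wild type had 4592, 6284 and 4484 CPM and the double mutant 2884, 3077 and 3145 CPM. Wild type replicate 2 was here the highest, and without it 12 of the 24 were called lower, with a median of -0.68. The letters CCAAT, which the respiratory activator Hap2/3/4/5 binds, were in 19 of the 24 promoters and in 62.5% of all promoters.

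ATP synthase genes changed less evenly. Of 20 tested, 5 were called lower and 1 higher (median -0.40). Besides *INH1*, the assembly factor gene *ATP10* fell from 12.1, 12.7 and 11.4 CPM to 3.26, 4.53 and 3.81 CPM (-1.43 ± 0.17), and the subunit genes *ATP16* (-0.86), *ATP2* (-0.67) and *ATP3* (-0.66) fell. *ATP11*, which encodes another assembly factor, rose by 1.19. Without double mutant replicate 3, 9 were called lower. In the TCA cycle 2 of 20 genes were called higher and 2 lower (median -0.15, and 0.06 without wild type replicate 2). The lower ones were *SDH2* (-1.22) and *SDH4* (-0.81), subunits of succinate dehydrogenase. The higher ones were *IDH1* (0.74) and *IDH2* (0.81), the isocitrate dehydrogenase subunits, and neither was called without double mutant replicate 3. *IDH1* also lost its call without wild type replicate 2, without wild type replicate 3 and at an adjusted p under 0.05 from limma.

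**Figure D3:**
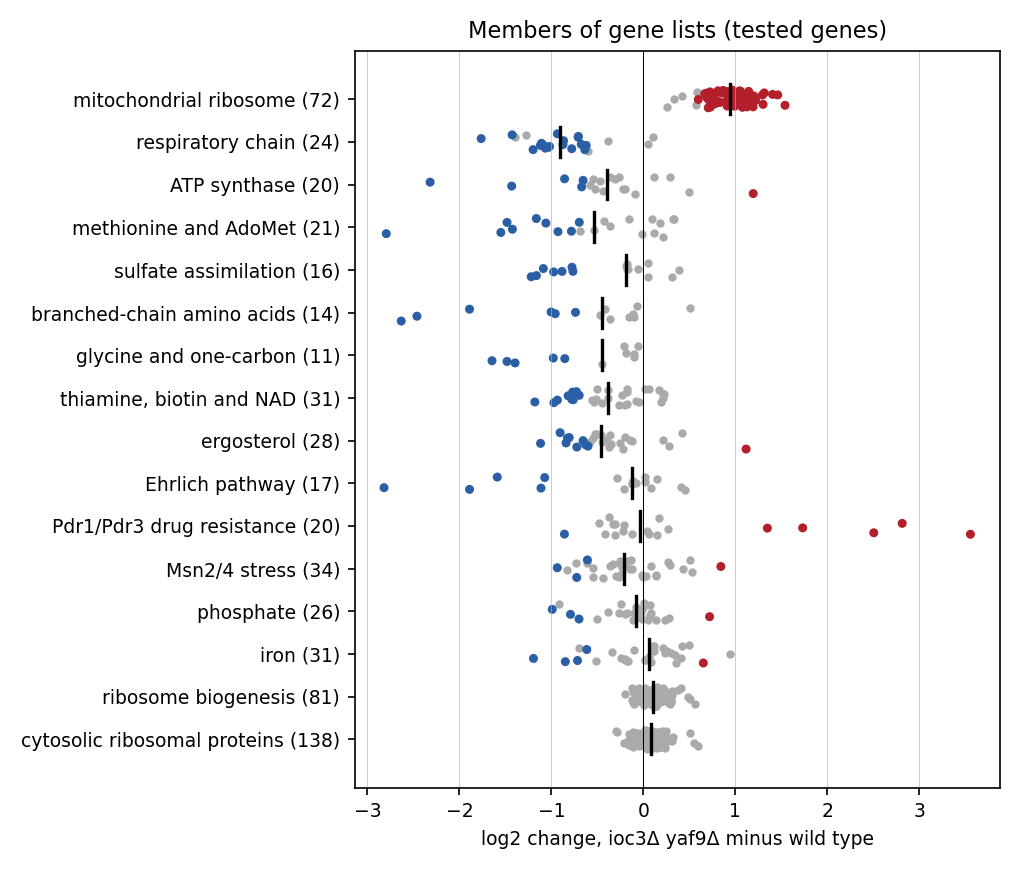
Change in *ioc3*Δ *yaf9*Δ against wild type (horizontal axis, log2) for the tested members of 16 gene lists, with the number tested in parentheses. Each point is a gene, red if called higher, blue if called lower and grey if not called, the black bar is the median, and vertical scatter within a row only separates points. Mitochondrial ribosomal genes lie to the right (median 0.94) and respiratory chain genes to the left (median -0.90).

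Of the 21 tested genes for methionine, cysteine and S-adenosylmethionine (AdoMet), 9 were called lower and none higher, with a median of -0.54. Besides *MET6* they included *SAM2* (-1.55), an AdoMet synthetase, and its near copy *SAM1* (-0.78), between which reads may be split. *MET13* (-1.48) makes the methyl donor of Met6, *MHT1* (-1.42) methylates homocysteine, and *MET17* (-1.16) fixes sulfide. The AdoMet transporter gene *SAM3* fell by 0.70. Not called were *CYS3* (0.34), *CYS4* (-0.36) and *HOM2* (-0.42). Without wild type replicate 1 the count was 5. Leaving out wild type replicate 2 gave 7 genes and a median of -0.29.

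Sulfate assimilation supplies the sulfide for these enzymes, and 7 of its 16 tested genes were called lower and none higher (median -0.18). *MET3*, the ATP sulfurylase that takes the first step, was at 103, 56.3 and 80.4 CPM in wild type and at 32.6, 30.3 and 40.01 CPM in the double mutant (-1.16 ± 0.23). *MET14* fell by 1.22, the sulfate permease gene *SUL2* by 1.09 and *MET5*, a subunit of sulfite reductase, by 0.98. *MET16*, which reduces PAPS, fell by 0.77 ± 0.14, from 20.7, 25.6 and 27.0 CPM to 14.1, 13.1 and 14.4 CPM (adjusted p = 0.00134). None of these enzyme genes overlapped between the strains, whereas the regulator genes *MET4* (0.31), *MET28* (0.05) and *CBF1* (0.05) were not called. CACGTG, the core that Cbf1 and Pho4 bind, was in 14 of the 16 promoters against 6.31% of all promoters and 10.8% of promoters of genes called lower.

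In branched-chain amino acid synthesis 6 of 14 genes were called lower and none higher (median -0.45). *LEU1*, the isopropylmalate isomerase, was at 870, 1649 and 886 CPM in wild type and at 192, 151 and 180 CPM in the double mutant. *OAC1*, a mitochondrial carrier that also exports isopropylmalate, was at 276, 494 and 299 CPM and then at 62.6, 51.6 and 72.4 CPM. *BAT1*, the mitochondrial aminotransferase, was at 1218, 1612 and 992 CPM and then at 365, 288 and 362 CPM. No library of the double mutant reached a wild type library in these genes, and the changes were -2.63 ± 0.21, -2.46 ± 0.22 and -1.89 ± 0.18. *LEU4* (-1.004), *ILV3* (-0.96) and *ILV5* (-0.74) fell as well, and the marker gene *LEU2* fell by 1.34 ± 0.27 (116, 198 and 105 CPM against 52.6, 42.8 and 63.5 CPM).

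The promoter stretches of *LEU1* and *BAT1* are shown because both genes fell and carry the palindrome that Leu3, the activator of this pathway, binds, searched as CCGG and CCGG with NN between them, on both strands of the same window. Capitals mark the match.
LEU1, chrVII:478840-478889, minus strand, 217 bases before the start codon: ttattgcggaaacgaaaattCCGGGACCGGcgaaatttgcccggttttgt
BAT1, chrVIII:517365-517414, plus strand, 147 bases before the start codon: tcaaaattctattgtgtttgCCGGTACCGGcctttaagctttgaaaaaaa

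A match to this palindrome was found in 16 of 5610 promoters (0.285%), in 5 of the 14 genes of the list, in 4 of 360 promoters of genes called lower (1.11%) and in none of the 331 of genes called higher. *OAC1* had no match in this window.

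Pathways that feed on serine, tryptophan and acetyl-CoA showed further decreases. Of 11 genes of glycine cleavage and one-carbon metabolism, 5 were called lower and none higher, and all 11 values were below 0 (median -0.45). *GCV2*, the glycine decarboxylase, went from 152, 80.7 and 132 CPM to 28.3, 26.7 and 65.9 CPM (-1.65 ± 0.36), and *SHM2*, the cytosolic serine hydroxymethyltransferase, fell by 1.395. *GCV1* fell by 0.98 and *GCV3* by 0.85. In de novo purine synthesis 4 of 18 genes were called lower, led by *ADE17* (-1.39), *ADE12* (-0.81) and *ADE1* (-0.74).

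Of 31 genes for thiamine, biotin and NAD, 9 were called lower and none higher (median -0.38). The list name is broader than the change, since 7 of the 9 were *BNA* genes of kynurenine metabolism, most of them on the route from tryptophan to NAD. *BNA2*, which opens that route, went from 10.5, 9.35 and 9.31 CPM to 3.13, 4.07 and 6.75 CPM (-0.97 ± 0.20), and *BNA3* (-0.93), *BNA1* (-0.82), *BNA4* (-0.78), *BNA6* (-0.77), *BNA7* (-0.73) and *BNA5* (-0.70) followed. *BIO4* of biotin synthesis fell by 1.18 and *SNZ1* of vitamin B6 synthesis by 0.76. The *THI* genes of thiamine synthesis were not called.

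In ergosterol synthesis 9 of 28 genes were called lower and 1 higher (median -0.46), led by *ERG10* (-1.12), the acetoacetyl-CoA thiolase, and *HMG1* (-0.91), the HMG-CoA reductase. *ECM22*, an activator of the sterol genes, was the one that rose, by 1.12 ± 0.21. Wild type replicate 2 was high in *ERG10* (859, 1704 and 753 CPM, against 468, 515 and 445 CPM). Without that replicate 3 genes were called lower, with a median of -0.23, and without double mutant replicate 1 there were 5.

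In arginine synthesis 3 of 13 genes were called lower (median -0.23, and 0.07 without wild type replicate 2), with wild type replicate 2 high in *ARG3* (37.3, 125 and 35.4 CPM against 20.2, 19.9 and 27.0 CPM) and 1 gene called without that replicate or without double mutant replicate 1. Of 31 nitrogen catabolite genes, 5 were called higher and 1 lower, with a median of -0.13 (-0.04 without wild type replicate 2) and 18 values below 0. The 5 were *CAR2*, the arginase gene *CAR1* (1.05), *PUT1* (1.38) and *PUT2* (0.74), which degrade proline, and *DUR1,2* (0.997), which degrades urea. *PUT4*, the proline permease gene, fell by 1.69, from 128, 188 and 137 CPM to 47.2, 58.3 and 34.0 CPM. The general permease genes *GAP1* (-0.82) and *MEP2* (-0.57) were not called.

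Among 19 glycolytic genes 4 were called higher and 1 lower (median 0.41). *ENO1*, whose near copy *ENO2* may share its reads, rose from 690, 541 and 557 CPM to 1747, 1726 and 1787 CPM (1.56 ± 0.25). *PYK2*, the minor pyruvate kinase, fell by 1.20. The number called higher was 9 without wild type replicate 1, and 2 without wild type replicate 2, double mutant replicate 1 or double mutant replicate 3, so that it rests on single libraries. In gluconeogenesis and the glyoxylate cycle 4 of 22 were called higher (median 0.12, and 0.25 without wild type replicate 2), with *JEN1*, the lactate permease gene, at 6.98, 6.15 and 8.05 CPM in wild type and at 19.2, 14.8 and 16.8 CPM in the double mutant (1.16 ± 0.24).

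Genes of the complexes that contain Yaf9 were examined next. Of 13 NuA4 subunits, 2 rose. *EAF1*, the scaffold found only in NuA4, was at 45.1, 45.2 and 51.7 CPM in wild type and at 116, 108 and 111 CPM in the double mutant (1.23 ± 0.13, adjusted p = 1.34e-05). *EPL1*, which anchors the catalytic module, was at 71.7, 75.7 and 80.3 CPM and then at 163, 181 and 162 CPM (1.14 ± 0.11, adjusted p = 8e-06). Both changes were far larger than the spread within a strain. Apart from *YAF9* itself no other NuA4 gene was called, and *SWC4*, shared with SWR1, had a change of 0.34. In the SWR1 complex the ATPase gene *SWR1* rose by 0.79 ± 0.17 (85.7, 73.5 and 93.6 CPM against 149, 181 and 115 CPM), and of the other 14 genes only *YAF9* was called.

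*ISW1* (0.10 ± 0.11) and *HTZ1* (0.21 ± 0.12) were not called, and neither was any of the 11 histone genes by limma, edgeR or DESeq2 (median 0.21, largest 0.46 for *HHF2*, 2 with an unadjusted p under 0.05). Apart from *IOC3*, no gene of the ISWI and CHD1 remodelers was called. Of the 10 genes for ribonucleotide reductase and its control, 4 rose (median 0.40). *HUG1*, which is induced by DNA damage, went from 4.47, 6.53 and 5.17 CPM to 10.2, 13.3 and 14.8 CPM (1.11 ± 0.16), *DIF1* rose by 0.71, *RNR4* by 0.66 and *RNR2* by 0.64. The libraries did not overlap in these genes. The last 2 were the genes not called without wild type replicate 3 (2 of 10 remained). *RNR4* also lost its call without wild type replicate 1 and without double mutant replicate 1.

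The heat shock genes followed in the study varied more within strains than between them. *HSP12* was at 452, 6.79 and 341 CPM in wild type and at 54.6, 13.4 and 416 CPM in the double mutant and its change of -0.62 ± 1.70 was not called (adjusted p = 0.853). *HSP26* was at 17.9, 7.68 and 17.1 CPM against 4.62, 5.16 and 55.4 CPM (-0.20 ± 0.90, adjusted p = 0.914). Double mutant replicate 3 was the highest of its strain in both genes and wild type replicate 2 the lowest of its strain. *IMD2* (507, 450 and 376 CPM against 428, 544 and 176 CPM) was not called either. Of 34 genes of the Msn2/4 stress response 1 was called higher and 3 lower (median -0.22), where 12.3% of all tested genes were called. In this list 8 were called lower without double mutant replicate 3 and 1 without double mutant replicate 1. Without wild type replicate 2, 3 were called higher and 3 lower, with a median of -0.04. Their sum was 2610, 1951 and 2283 CPM in wild type and 1290, 1321 and 2766 CPM in the double mutant.

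Several large groups showed few or no calls. None of 138 cytosolic ribosomal protein genes (median 0.09), of 81 ribosome biogenesis genes (median 0.10), of 27 genes of the G1 and S phases (median 0.04), of 16 pyrimidine genes (median 0.07) or of 21 trehalose and glycogen genes (median -0.07) was called by limma, edgeR or DESeq2, beside 713 limma calls over all genes. An unadjusted p under 0.05 was found in limma for 7, 12, 1, 6 and 2 of them, in the same order. Without wild type replicate 2, 2 of the cytosolic ribosomal protein genes were called higher, and without double mutant replicate 3, 2 of the ribosome biogenesis genes. Of 34 Ty open reading frames, whose copies share reads, 3 were called higher and none lower (median 0.18). The 280 genes within 30000 bp of a chromosome end were not such a group, with 18 called higher and 41 lower (median -0.08). Over all tested genes 5.95% were called higher and 6.38% lower. With 1 library left out, 28 to 47 of the genes near chromosome ends were called lower. The largest change there, singled out after its value was seen, was that of YDR541C, at 29.7, 25.1 and 28.1 CPM in wild type and at 2.31, 2.35 and 1.96 CPM in the double mutant (-3.16 ± 0.15, adjusted p = 4.58e-10).

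The genes beside each deletion were examined because a deletion can alter them. YNL108C, next to *YAF9*, was chosen after its values were seen. It was at 41.3, 42.0 and 47.3 CPM in wild type and at 12.9, 18.6 and 22.5 CPM in *ioc3*Δ *yaf9*Δ (-1.26 ± 0.17, adjusted p = 0.000149). In the other strains that lack *YAF9* the mean of YNL108C was 45.5 CPM with *IOC3* intact and 47.1 CPM with *IOC3* truncated. YNL108C differed from *yaf9*Δ by -1.32 ± 0.17 (adjusted p = 0.000114). *INP52*, on the other side of *YAF9* (-0.04), and *CMK1*, next to *IOC3* (0.18), were not called. *DCV1*, before *IOC3*, had 26 reads over the wild type libraries and 2 over the double mutant libraries, and was called lower in *yaf9*Δ too (-0.75).

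The double mutant was then tested against each strain with 1 of the deletions. These comparisons reuse the *ioc3*Δ *yaf9*Δ libraries of the comparison with wild type. For scale, against wild type 703 genes were called in *ioc3*Δ (12.2%, with 9.04% higher and 3.11% lower) and 435 in *yaf9*Δ (7.52%, with 3.91% higher and 3.61% lower).

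Against *yaf9*Δ, 561 genes were called in the double mutant (9.7%), 204 higher (3.53%) and 357 lower (6.17%). Leaving out double mutant replicate 1 reduced the count to 320. The drug resistance genes were among the largest differences, with *RSB1* 3.68 ± 0.32 and *CIS1* 2.54 ± 0.29 above *yaf9*Δ, and so were *OSI1* (2.83) and *INA1* (2.51). *PHO84*, the high-affinity phosphate transporter gene, was at 144, 81.5 and 358 CPM in the double mutant against 10.2, 14.1 and 15.8 CPM in *yaf9*Δ (3.52 ± 0.46). The double mutant overlapped with wild type (139, 164 and 103 CPM) in *PHO84*.

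After *IOC3* itself, the called named genes furthest below *yaf9*Δ were *EGO4*, *FIT2*, *GPH1* and *HSP26*. *HSP12* was further below (-4.10 ± 1.70) but was not called (adjusted p = 0.115 from limma). It was at 1428, 1042 and 1142 CPM in *yaf9*Δ and at 54.6, 13.4 and 416 CPM in the double mutant. *FIT2*, a cell wall mannoprotein that retains siderophore iron, was at 48.2, 30.6 and 47.6 CPM in *yaf9*Δ and at 2.58, 4.07 and 4.17 CPM in the double mutant (-3.22 ± 0.28). *GPH1*, the glycogen phosphorylase, was at 119, 79.1 and 99.8 CPM against 6.93, 7.50 and 19.5 CPM (-3.15 ± 0.52), and *EGO4* (-3.27) and *HSP26* (-3.07, adjusted p = 0.0346) were the others named. Of the Msn2/4 list, 21 of 34 were called lower than in *yaf9*Δ and none higher (median -0.81), and of 31 iron genes 14 were lower and none higher (median -0.65). In *yaf9*Δ against wild type, 18 of the 34 stress genes and 16 of the 31 iron genes were called higher. Of the respiratory list 20 of 24 were lower than in *yaf9*Δ (median -1.004) and of the mitochondrial ribosome list 20 of 72 were higher (median 0.53).

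**Figure D4:**
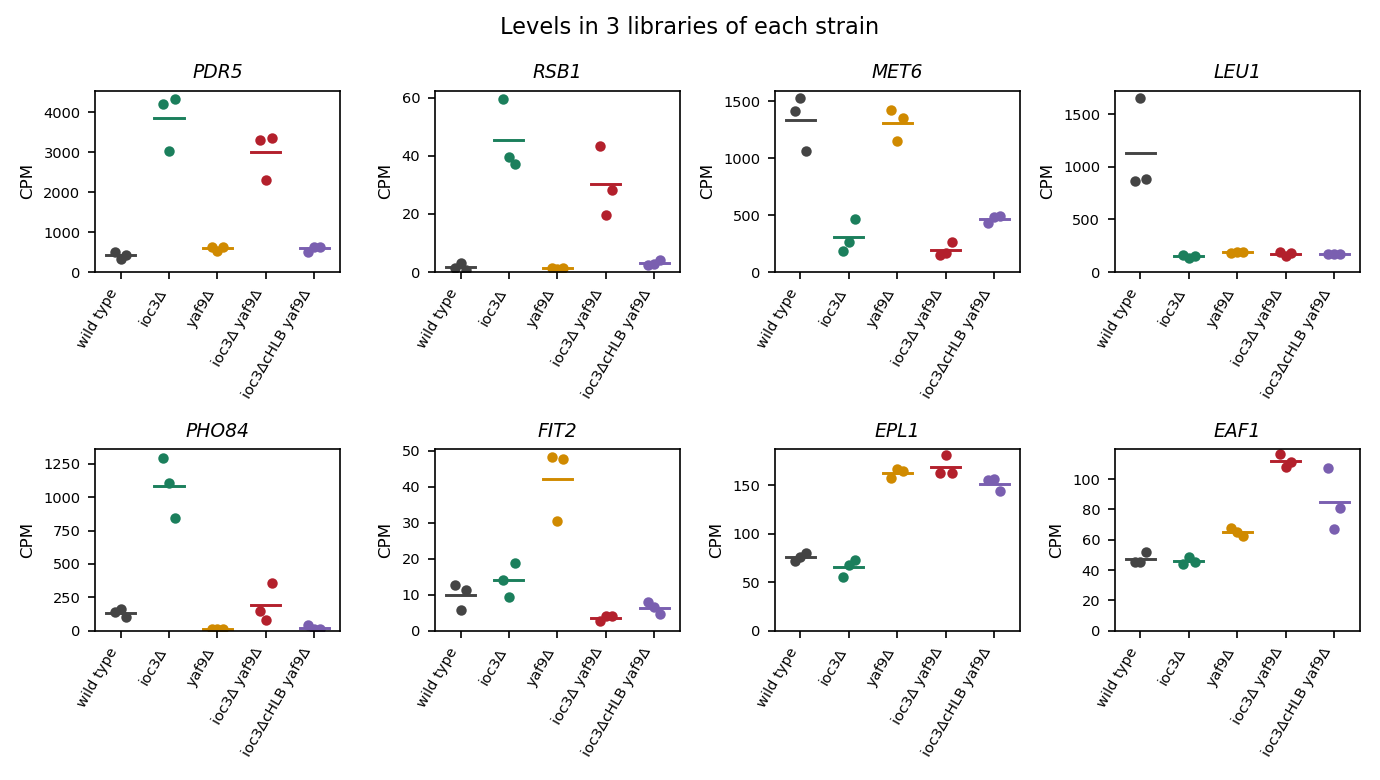
CPM of 8 genes in the 3 libraries (points) and their mean (bar) in 5 strains (wild type, both single mutants, the double mutant and the double mutant with truncated Ioc3), each panel with its own linear axis from 0. *PDR5*, *RSB1* and *MET6* of the double mutant lie near *ioc3*Δ, *EPL1* near *yaf9*Δ, *LEU1* is low in every mutant strain, and *PHO84* and *FIT2* do not keep the high level of a single mutant.

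Against *ioc3*Δ, 778 genes were called (13.4%), 202 higher (3.49%) and 576 lower (9.96%). After *YAF9* itself, the named decreases were in phosphate genes. *PHO5*, the secreted acid phosphatase, was at 212, 146 and 83.0 CPM in *ioc3*Δ and at 18.5, 12.8 and 18.4 CPM in the double mutant (-2.99 ± 0.29). The near-identical pair *PHO11* (-3.12) and *PHO12* (-3.06), between which reads may be split, and *SPL2* (-2.97) were the others. Of 26 phosphate genes, 15 were called lower than in *ioc3*Δ and none higher (median -1.01), and 15 were called higher in *ioc3*Δ against wild type. Against wild type itself, the double mutant had 1 phosphate gene called higher (none without wild type replicate 2) and 3 lower (0 to 4 with 1 library left out).

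Higher than in *ioc3*Δ were *CAR2* (1.46), *EPL1* (1.36), *HUG1* (1.34), *FLO11* (1.33) and *EAF1* (1.26). Ribosome biogenesis genes were higher in 49 of 81 cases and lower in none (median 0.61), where *ioc3*Δ alone had 12 of 81 called lower than wild type. The nucleolar methyltransferase gene *NOP2* was at 650, 587 and 490 CPM in the double mutant and at 300, 321 and 278 CPM in *ioc3*Δ (0.93 ± 0.12). No mitochondrial ribosome gene was called different from *ioc3*Δ by limma, edgeR or DESeq2 (median 0.11, with 2 of 72 at an unadjusted p under 0.05). *PDR5* (-0.37 ± 0.18, adjusted p = 0.138) and *RSB1* (-0.60 ± 0.32, adjusted p = 0.181) were not called either, which does not show equal levels, while *PDR15* was 0.96 below *ioc3*Δ (adjusted p = 0.00341).

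The interaction contrast asks whether the double mutant departs from the sum of both single changes on the log2 scale. It was called for 543 genes (9.38%), 189 above the sum (3.27%) and 354 below it (6.12%). The count rested on single libraries. It was 181 without *ioc3*Δ replicate 3, 187 and 297 without double mutant replicates 1 and 2, 206 and 295 without *yaf9*Δ replicates 1 and 3, 336 without wild type replicate 3, and 859 without double mutant replicate 3. *LEU1* was furthest above the sum among the named genes, by 2.73 ± 0.30 (adjusted p = 0.000252), with *OAC1* (2.35), *BAT1* (1.83), the glutamate dehydrogenase gene *GDH1* (1.81) and the malic enzyme gene *MAE1* (1.42) after it. Each deletion alone already lowered *LEU1*, to means of 150 CPM in *ioc3*Δ and 189 CPM in *yaf9*Δ, and the double mutant had 175 CPM. Of the 14 branched-chain genes 7 were called above the sum and none below. The same held for 38 of 81 ribosome biogenesis genes, and for 17 of 138 cytosolic ribosomal protein genes, with none below in either list.

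*EAF1* was also above the sum, by 0.81 ± 0.18 (adjusted p = 0.0219), with means of 46.1 CPM in *ioc3*Δ, 65.1 CPM in *yaf9*Δ and 112 CPM in the double mutant. Its level exceeded that of *yaf9*Δ by 0.77 ± 0.13. *FIT2* was furthest below the sum, at -3.71 ± 0.40, and *EGO4* (-3.06), the glutamate decarboxylase gene *GAD1* (-2.71), the glyceraldehyde-3-phosphate dehydrogenase gene *TDH1* (-2.70) and the catalase gene *CTT1* (-2.68) were next. Of the Msn2/4 list 24 of 34 were below the sum and none above (median -1.30). The same direction was called for 14 of 31 iron genes and 13 of 26 phosphate genes, with 1 iron gene and no phosphate gene above.

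**Figure D5:**
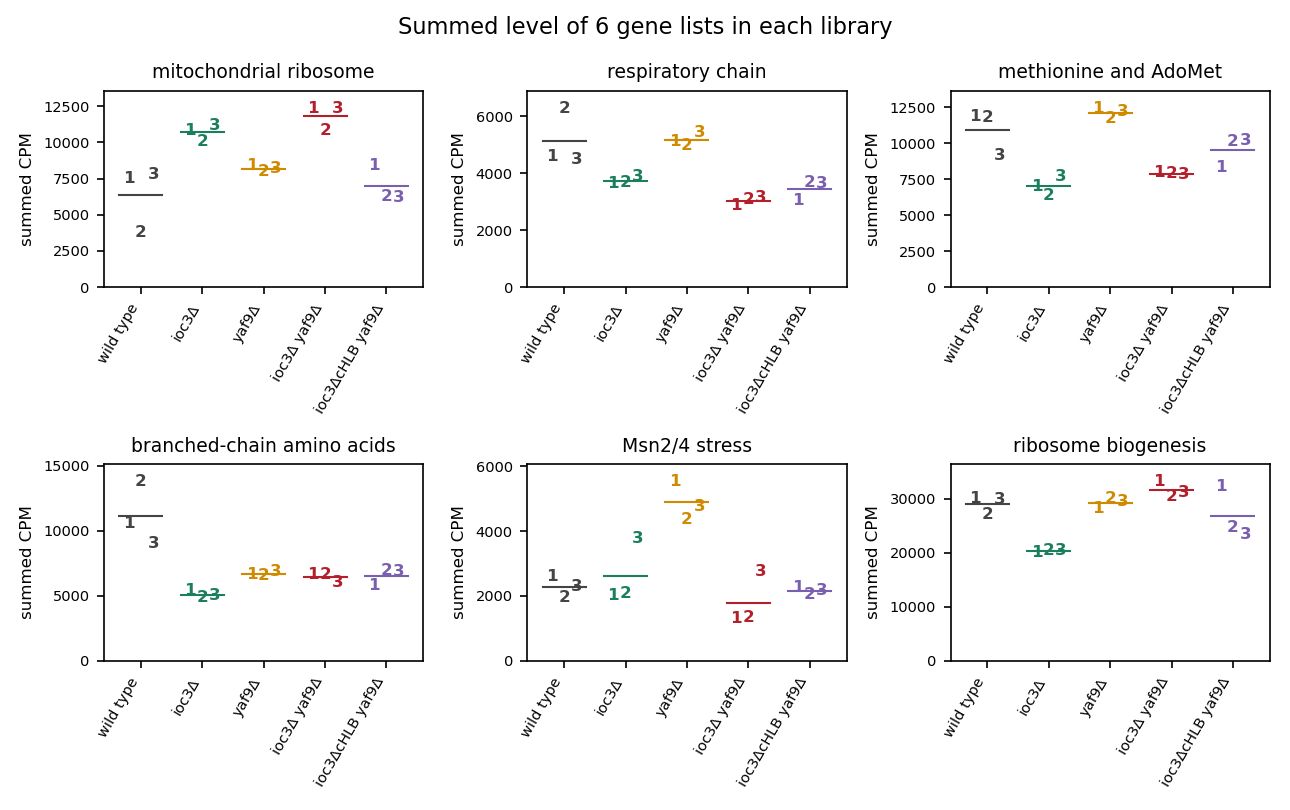
Summed CPM of the genes of 6 lists in each library of 5 strains, plotted as the replicate number, with the mean of each strain as a line. Wild type replicate 2 is lowest for the mitochondrial ribosome (3794 CPM) and highest for the respiratory chain (6284 CPM), and double mutant replicate 3 is the highest of its strain for Msn2/4 stress genes (2766 CPM).

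The double mutant that keeps a truncated Ioc3, *ioc3*Δ*cHLB yaf9*Δ, was the closest comparison. *IOC3* was transcribed there at a mean of 43.0 CPM, so a protein without part of the HLB domain can be made. Between these strains 278 genes were called (4.8%), 160 higher in *ioc3*Δ *yaf9*Δ (2.77%) and 118 lower (2.04%). This count rested on single libraries. It was 31 without *ioc3*Δ *yaf9*Δ replicate 1, 36 and 56 without *ioc3*Δ*cHLB yaf9*Δ replicates 2 and 3, 170 without *ioc3*Δ *yaf9*Δ replicate 2 and 647 without *ioc3*Δ*cHLB yaf9*Δ replicate 1.

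Of the drug resistance list 7 of 20 were called higher and 2 lower (median 0.03). *PDR5* was at 3308, 2313 and 3354 CPM in *ioc3*Δ *yaf9*Δ, whereas the strain with truncated Ioc3 had 512, 637 and 628 CPM (2.32 ± 0.18, adjusted p = 1.01e-06). *RSB1* (2.87 ± 0.32), *CIS1* (2.70 ± 0.29), *OSI1* (2.12 ± 0.32) and *PHO84* (3.10 ± 0.46) were the other genes among the 5 largest named increases. *ATG40*, beside *PDR5*, was 1.84 ± 0.16 higher. Of the mitochondrial ribosome list 60 of 72 were higher in *ioc3*Δ *yaf9*Δ (median 0.78). *MET6* (-1.30 ± 0.28) and *ARO10* (-1.14 ± 0.26) were lower in the strain without Ioc3, whereas *LEU1* (0.00 ± 0.21) was not called. The glucose transporter genes *HXT7* (-2.32 ± 0.66), which shares reads with its near copy *HXT6*, and *HXT4* (-1.95 ± 0.50), with *GPH1* (-2.01) and *RGI1* (-1.76), were the largest named and called decreases besides *IOC3*.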

How the data were processed

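RNA-seq libraries, made with a stranded mRNA kit from total RNA of 6 yeast strains, 3 independent cultures each, were compared by strain as labelled. Per the submitters' notes the authors used Bowtie2 (version 2.0) within TopHat2 (version 2.0.10) and the sacCer3 build, counted reads per gene with HTSeq and deposited a signal, CPM computed with edgeR (version 3.6.2). The strand setting of the counting is not given in the sources used here. The table held 5830 genes, and 4 emptied lines are not analysed here. All values were whole multiples of 1 read within 0.01 reads (100%), which gave the read counts (5145170 to 10192972 per library, so that 3 reads were 0.256 to 0.603 CPM).

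limma (version 3.58.1, R 4.3.3) with a mean-variance trend was run on log2(CPM + 1), for genes that reached 1 CPM in 3 or more libraries, in one fit with a mean per strain. Fold changes on this scale understate those of low genes. Calls needed a Benjamini-Hochberg adjusted p under 0.1, two-sided, and a 1.5-fold change. Count tests on the read counts, DESeq2 (version 1.42.0) and edgeR (version 4.0.16), were alternatives, as were other pseudocounts, scaling, filters and samples, and edgeR called 375 genes higher and 369 lower. The code was tested on simulated data.

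Named genes were 12 followed genes, the 15 largest called changes each way with a mean of at least 5 CPM, a symbol and no overlap between strains, the 5 largest each way in other comparisons, and up to 4 of each list, and other list members, YNL108C, YDR541C and *DCV1* were named after their values were seen. The gene lists, members and tests were chosen with earlier results of these data known. Coordinates and promoter sequences are from the RefSeq genome of the same build, in which 5634 of the 5830 genes were matched.

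Replicate numbers are shared by all strains. Deviations of same-numbered libraries correlated at 0.23, 0.602 and 0.572 between *ioc3*Δ and *ioc3*Δ *yaf9*Δ, which meets the rule for pairing by number (each above 0.1). Values given against *ioc3*Δ and for the interaction are from the fit without the block, which called 778 and 543 genes. The fit with the replicate block called 785 and 549. That block gave all strains a shared effect per replicate number. Same-numbered libraries of *ioc3*Δ*cHLB yaf9*Δ and the double mutant correlated at -0.0764, 0.395 and -0.332. The block counts therefore do not show what pairing *ioc3*Δ and the double mutant alone would give, which was not tested.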

Additional observations from a re-analysis of the deposited data

Results flagged for a closer look

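The change caused by 1 deletion differed with the state of the other gene for 543 genes by the limma test of the interaction, and for several genes named above. The interaction is given on the log2 scale. Above the sum of the single changes were *LEU1* (2.73), *OAC1* (2.35), *BAT1* (1.83), *GDH1* (1.81), *MAE1* (1.42) and the marker gene *URA3* (0.75). Below it were *FIT2* (-3.71), *EGO4* (-3.06), *GAD1* (-2.71), *TDH1* (-2.70), *CTT1* (-2.68), the ATPase inhibitor gene *INH1* (-1.18), *PDR15* (-1.02) and *PDR5* (-0.87). No explanation was tested.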

How the results depend on the processing

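Each strain had 3 libraries, and wild type replicate 2 and double mutant replicate 3 differed most from the others of their strain. Against wild type, the total count of called genes and the counts in each direction stayed within 1.5 times of 713, 344 and 369 under every alternative run over all genes. Leaving out 1 library gave 583 to 780 called genes against wild type (286 to 359 higher, 277 to 460 lower). It gave 320 to 700 against *yaf9*Δ (101 to 219 higher, 219 to 481 lower) and 638 to 964 against *ioc3*Δ (162 to 257 higher, 476 to 707 lower). It gave 181 to 859 for the interaction (67 to 301 above the sum, 114 to 558 below) and 31 to 647 against *ioc3*Δ*cHLB yaf9*Δ (17 to 319 higher, 14 to 328 lower). With a pseudocount of 5, 126 genes were called higher than in *yaf9*Δ and 362 lower than in *ioc3*Δ. At an adjusted p under 0.05, 300 genes were called for the interaction (115 above, 185 below) and 126 against *ioc3*Δ*cHLB yaf9*Δ (64 higher, 62 lower). A fit of only the compared strains called 163 genes there, 43 of them lower. With the replicate block, 345 genes were called higher and 375 lower than in wild type, where same-numbered libraries correlated at -0.128, 0.183 and 0.045.

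Uncalled changes against wild type turned direction in these cases, and the cause was not tested. Over single libraries left out, and with the 2 libraries named above left out together (chosen after seeing the data), *LYS2* ranged from -0.24 to 0.065 (0.034 without wild type replicate 2), *URA3* from -0.28 to 0.10 (0.011), *GDH1* from -0.45 to 0.44 (0.045, and 0.23 without double mutant replicate 3), *IMD2* from -0.68 to 0.14 (0.13 without double mutant replicate 3) and *PHO84* from -0.29 to 0.77 (-0.14 without both). *HSP12* ranged from -3.795 to 0.52 (0.43 and 0.23 without wild type replicates 1 and 3), *HSP26* from -1.65 to 0.37 (0.31 without double mutant replicate 2, 0.66 by edgeR, 0.64 by DESeq2) and *GAD1* from -0.59 to 0.087 (0.085 and 0.080 without wild type replicate 2 or double mutant replicate 1, 0.0079 by edgeR, 0.00094 by DESeq2). *CTT1* ranged from -0.47 to 0.082, *PHO5* from -0.36 to 0.0015 and *HXT7* from -1.50 to 0.028.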

Other observations

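Of the 17 tested genes of the Ehrlich pathway 5 were called lower and none higher, with a median of -0.12 and 6 values above 0. Besides *ARO10* and *BAT1* they were *ARO9* (-1.59), an aromatic aminotransferase, *PDC5* (-1.11), a minor pyruvate decarboxylase, and *ATF2* (-1.07), an alcohol acetyltransferase. Of 16 fermentation and acetaldehyde genes 4 were called lower and none higher, with a median of -0.09 and 8 values above 0. These were *ALD6*, *ALD5* (-1.43), *PDC5* and *ACS2* (-1.003). In the stress list, the 4 called genes were *MSC1* (-0.94), the chaperone gene *SSA4* (-0.72), the mitochondrial superoxide dismutase gene *SOD2* (-0.61) and *HSP31* (0.84).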
